A study of Mus musculus with 6 samples.

Results

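The unfolded protein response and the integrated stress response were followed through 39 genes in mouse liver with and without SIRT7, a nuclear NAD-dependent deacylase. The genes were listed by function, and each of the 39 had at least 1 probe set carrying exactly 1 gene symbol, out of 12393 such genes on the array. Each gene was read from its brightest probe set (mean over 6 arrays). Its other probe sets with a mean log2 value of at least 4 are plotted beside it, and only some are given in the text. The wild-type group held 3 liver samples with the wild-type Sirt7 allele and the knockout group 3 with the knock-out allele, 1 Affymetrix array per sample (called livers 1 to 3 of each group), and the labels state a single treatment for all 6. The sources used here give no strain, age, sex or diet, and do not say how the allele was made. Whether the 3 samples of a group were separate animals is not stated, so every p-value here reflects only how these samples scattered, which may be technical. By its title the study concerns tumour suppression by SIRT7 through MYC, and the comparison here asks whether stress response genes of the endoplasmic reticulum (ER) differed in liver without SIRT7.

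Hepatocytes secrete most plasma proteins, so their ER carries a large load of protein folding. When unfolded protein accumulates there, the sensors IRE1 (Ern1), PERK (Eif2ak3) and ATF6 raise chaperone synthesis through the transcription factors XBP1 and ATF6, widen the route by which misfolded protein is sent to the proteasome (ER-associated degradation, ERAD), and slow translation through phosphorylated eIF2. Phosphorylated eIF2, which other kinases also produce during amino acid shortage and similar stresses, favours translation of ATF4, and ATF4 with its target CHOP (Ddit3) turns on genes of amino acid supply, feedback and cell death. This last arm is the integrated stress response.

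Short DNA elements in promoters are the sites through which these transcription factors act. RefSeq promoter windows of 300 bases on build GRCm38.p6, from 250 bases before a transcription start to 50 after it, were at hand for 34 of the 39 genes (Atf6, Derl1, Hyou1, Manf and Ppp1r15b had no entry). They were searched on both strands for 4 elements: the ER stress response element ERSE (CCAAT and CCACG separated by 9 bases), known as a site of ATF6 and NF-Y; the related ERSE-II (ATTGG and CCACG separated by 1 base); the unfolded protein response element UPRE (TGACGTGG); and CARE (TGATGNAA), the element bound by ATF4 with C/EBP partners. ERSE was in 9 of the 34 genes (26.5%), against 37 of 27025 genes (0.137%) with a window. It was in 7 of 14 chaperone genes and 2 of 6 ERAD genes, in 0 of 5 sensor and factor genes and in 0 of 9 genes of the ATF4 and CHOP axis. CARE was in 7 of 34 genes (20.6%) against 4.51% of all genes, and 6 of the 7 were among the 9 genes of the ATF4 and CHOP axis. ERSE-II was in 2 of 34 (5.88%, against 0.0444% of all genes) and UPRE in 0 of 34 (against 0.714%). No matches of different elements overlapped in these windows (0 cases), and a match is a description of the sequence, not evidence of binding.

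The whole windows of Hspa5, Herpud1 and Fgf21 are shown because they carry, in this order, the classical chaperone element, both kinds of element at once, and the element of the hepatokine discussed last. All sequences run 5′ to 3′ on the strand with the same sense as the RNA of the gene, with the matched element in capitals.
Hspa5, chr2:34771840-34772139, plus strand: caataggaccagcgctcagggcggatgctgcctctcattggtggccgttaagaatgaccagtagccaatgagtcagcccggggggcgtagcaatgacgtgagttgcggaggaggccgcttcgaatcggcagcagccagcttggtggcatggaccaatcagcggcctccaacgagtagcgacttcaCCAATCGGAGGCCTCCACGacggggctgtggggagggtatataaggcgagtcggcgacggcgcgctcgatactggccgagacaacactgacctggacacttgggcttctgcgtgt
Herpud1, chr8:94386179-94386478, plus strand: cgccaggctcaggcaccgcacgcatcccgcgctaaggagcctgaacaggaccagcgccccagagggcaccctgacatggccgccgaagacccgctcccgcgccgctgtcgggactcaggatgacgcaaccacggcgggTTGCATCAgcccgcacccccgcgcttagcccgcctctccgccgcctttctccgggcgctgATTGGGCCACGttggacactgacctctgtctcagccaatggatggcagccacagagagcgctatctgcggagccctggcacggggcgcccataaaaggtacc
Fgf21, chr7:45615441-45615740, minus strand: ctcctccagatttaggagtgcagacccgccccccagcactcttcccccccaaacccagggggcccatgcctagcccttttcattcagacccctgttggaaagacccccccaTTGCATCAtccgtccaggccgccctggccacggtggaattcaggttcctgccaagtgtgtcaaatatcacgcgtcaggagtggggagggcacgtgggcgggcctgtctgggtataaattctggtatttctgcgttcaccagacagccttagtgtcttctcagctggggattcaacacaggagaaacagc

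The other ERSE and ERSE-II matches are shown with 10 flanking bases on each side, to compare the orientation of the element and its distance from the start. Matches that read CGTGG first lie on the opposite strand. Hsp90b1 carries 2 of them, in opposite orientation.
Hsp90b1, ERSE, chr10:86705628-86705666, minus strand, match from 212 to 194 bases before the start: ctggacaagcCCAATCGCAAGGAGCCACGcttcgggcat
Hsp90b1, ERSE, chr10:86705523-86705561, minus strand, match from 107 to 89 bases before the start: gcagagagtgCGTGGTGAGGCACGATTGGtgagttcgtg
Calr, ERSE, chr8:84847065-84847103, minus strand, match from 162 to 144 bases before the start: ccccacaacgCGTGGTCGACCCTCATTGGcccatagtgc
Canx, ERSE, chr11:50325790-50325828, minus strand, match from 145 to 127 bases before the start: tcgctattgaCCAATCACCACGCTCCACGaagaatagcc
Pdia6, ERSE, chr12:17266481-17266519, plus strand, match from 98 to 80 bases before the start: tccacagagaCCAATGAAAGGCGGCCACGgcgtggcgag
Dnajc3, ERSE, chr14:118937817-118937855, plus strand, match from 105 to 87 bases before the start: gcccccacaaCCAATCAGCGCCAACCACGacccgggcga
Creld2, ERSE, chr15:88819510-88819548, plus strand, match from 126 to 108 bases before the start: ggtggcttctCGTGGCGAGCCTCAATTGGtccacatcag
Derl3, ERSE, chr10:75893232-75893270, plus strand, match from 156 to 138 bases before the start: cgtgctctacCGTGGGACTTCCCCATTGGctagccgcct
Syvn1, ERSE, chr19:6046522-6046560, plus strand, match from 44 to 26 bases before the start: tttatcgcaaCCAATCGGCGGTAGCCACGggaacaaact
Dnajb11, ERSE-II, chr16:22857842-22857872, plus strand, match from 7 to 17 bases after the start: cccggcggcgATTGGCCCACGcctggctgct

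The CARE matches of the ATF4 and CHOP axis other than that of Fgf21 are shown in the same way. Atf3, Chac1 and Nupr1 share the letters TTGCATCA with Fgf21 and Herpud1, whereas Trib3 and Asns differ from them inside the element and Asns carries it in the other orientation.
Atf3, CARE, chr1:191183426-191183453, minus strand, match from 110 to 103 bases before the start: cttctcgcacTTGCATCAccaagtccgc
Chac1, CARE, chr2:119351039-119351066, plus strand, match from 193 to 186 bases before the start: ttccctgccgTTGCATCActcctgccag
Trib3, CARE, chr2:152344029-152344056, minus strand, match from 14 to 21 bases after the start: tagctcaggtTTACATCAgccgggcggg
Asns, CARE, chr6:7693215-7693242, minus strand, match from 23 to 16 bases before the start: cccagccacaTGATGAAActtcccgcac
Nupr1, CARE, chr7:126625563-126625590, minus strand, match from 110 to 103 bases before the start: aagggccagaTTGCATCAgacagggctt

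Sirt7 itself averaged 9.74 ± 0.15 with the wild-type allele and 2.78 ± 0.37 without it (log2 GCRMA value, SD, n = 3 each), a fall of 6.96 on the log2 scale (limma adjusted p = 3.99e-06). Hepatocyte markers, 9 of 9 on the array, all passed a mean log2 value of 4, with 0 called by limma and 0 at an unadjusted p under 0.05; 7 of the 9 differences were below 0, with a median of -0.19. Their median deviation was 0.00, 0.13 and 0.17 in wild-type livers 1 to 3 and -0.25, -0.26 and 0.19 in knockout livers 1 to 3. In 5 of the 9 (Alb, Apoa1, Apob, Serpina1c and Fgb) knockout livers 1 and 2 lay below every wild-type liver and knockout liver 3 did not. Ttr, Tat, Cyp2e1 and Hnf4a did not show this, and the differences of Ttr (0.10) and Tat (0.07) were above 0. The pattern was found in 17.3% of all tested genes. The opposite pattern, with knockout livers 1 and 2 above every wild-type one and knockout liver 3 not, was found in 9.97% of all tested genes. Among the 37 tested stress response genes the first held in 2 (5.41%, P4hb and Creb3l3). The second held in 4 (10.8%, Hspa5, Hsp90b1, Dnajc3 and Atf6). Of the pancreatic acinar markers, whose cells are rich in ER chaperones, 5 of 7 had a mean under 4, but Cela1 was at 9.87. Of 8 plasma and B cell markers 6 passed that level, and the summed log2 value of the 8 ran from 36.6 to 40.7 in wild-type and from 31.1 to 46.5 in knockout livers. Wild-type liver 3 stood apart from the other wild-type livers in cell cycle genes: the median deviation of 11 such genes from their own means was 0.33 there, -1.35 and -1.49 in wild-type livers 1 and 2, and 0.65 to 0.74 in the knockout livers. Of these 11 genes limma called 0, with 10 at an unadjusted p under 0.05 (6.46% of all tested genes lay there). All 11 differences were above 0, with a median of 1.37. In 6 of the 11 the groups did not overlap, against 9.74% of all tested genes. In bulk liver, fewer cells of a type and less RNA per cell cannot be told apart.

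Of the 39 genes, 37 had a mean log2 value of at least 4 and were tested with all other such genes, 8343 in total; Ern1 and Fgf21 were under that level. Limma called 0 of the 37 after Benjamini-Hochberg adjustment over all genes at a threshold of 0.05, and percent called was 0.024% over all tested genes. At an unadjusted p under 0.05 there were also 0 of 37, against 6.46% of all tested genes (3.04% higher and 3.42% lower in knockout), and an ordinary 2-sample test called 0. Groups did not overlap in 0 of the 37, against 9.74% of all tested genes (4.27% higher and 5.48% lower). The smallest unadjusted p among them was 0.171 (Atf4). There were 24 differences above 0 and 13 below, with a median of 0.04, against a median of -0.03 over all tested genes, of which 45.4% were above 0. In 29 of the 37 genes the 95% interval stayed within 1 log2 unit, that is a 2-fold change, on both sides of 0, against 79.6% of all tested genes. In 5 it stayed within 0.5. The median half-width was 0.60, from intervals not adjusted for the number of genes. By role it was 0.52 for chaperones, 0.48 for ERAD genes, 0.60 for sensors and factors and 0.72 for the ATF4 and CHOP axis.

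**Figure D1:**
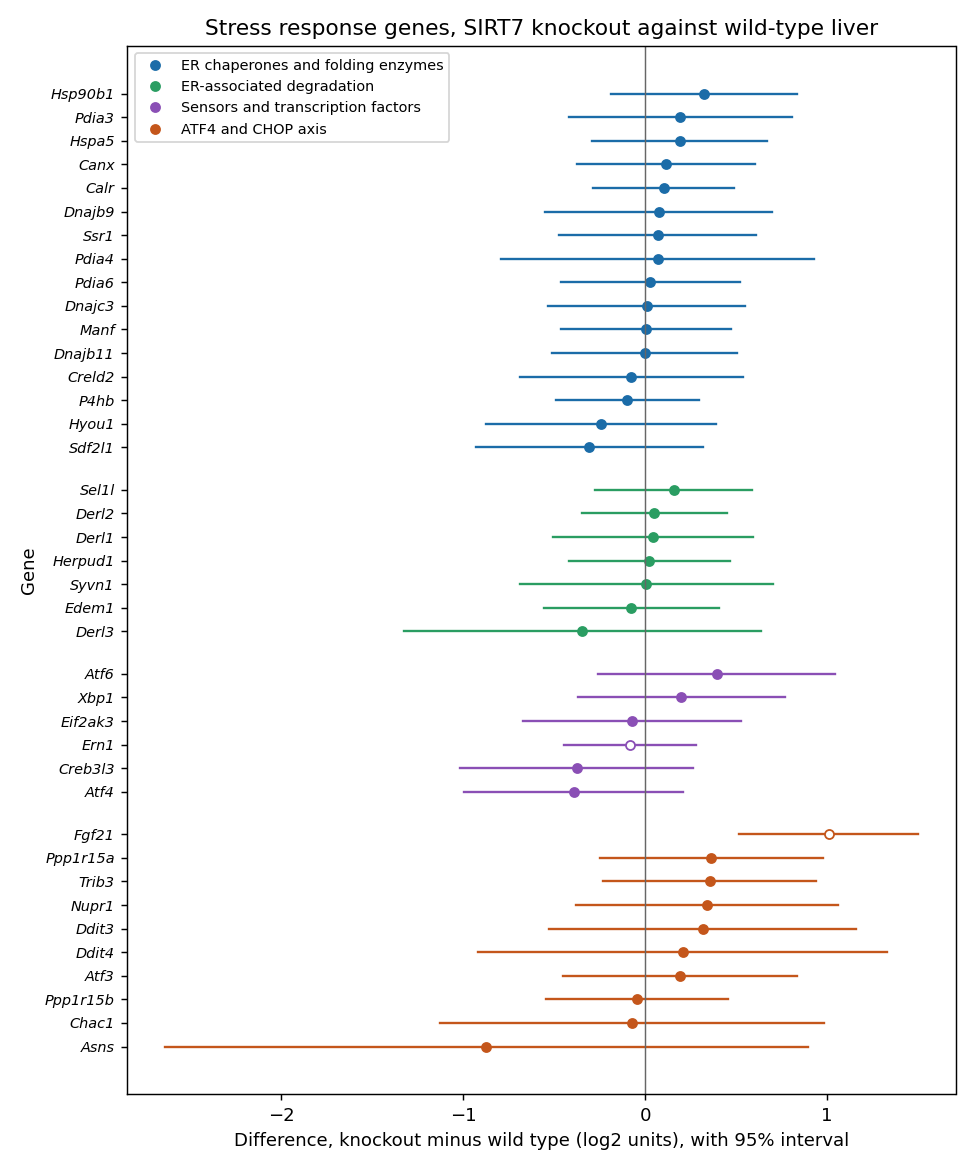
Difference between knockout and wild-type liver in log2 units (x axis) for each of the 39 genes (y axis), with 95% intervals from limma, coloured by role. Filled points are the 37 tested genes, whose intervals all include 0; open points are Ern1 and Fgf21, from the fit without a filter on low values.

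No 95% interval of an ER chaperone or folding enzyme excluded 0. Across the 16 genes the median difference was 0.05, with 11 above 0 and 5 below, from -0.31 (Sdf2l1) to 0.33 (Hsp90b1), and limma called 0. All 16 intervals lay within 1 log2 unit of 0. Hspa5 encodes BiP, the ER HSP70 that binds unfolded chains and holds the sensors inactive. Its log2 values were 11.97, 11.90 and 11.79 in wild-type livers 1 to 3 and 12.23, 12.28 and 11.72 in knockout livers 1 to 3. Knockout livers 1 and 2 lay above every wild-type liver and knockout liver 3 below every one, so the groups overlapped. The difference was 0.19 (SE 0.21, 95% interval -0.29 to 0.67, limma adjusted p = 0.863), and its other probe set gave -0.08. Hsp90b1, the ER HSP90 known as GRP94, was at 11.58, 11.36 and 11.47 in wild-type livers 1 to 3 and 11.97, 12.03 and 11.38 in the knockout livers. Again knockout livers 1 and 2 were high while knockout liver 3 lay within the wild-type range. The difference was 0.33 (SE 0.22, 95% interval -0.19 to 0.84, limma adjusted p = 0.797), and the other probe set gave 0.27. Without knockout liver 3 it was 0.53 (limma adjusted p = 0.274), and over all settings tried the adjusted p ran from 0.0264 to 1, under 0.05 only with array weights. That setting called 1748 of all 8343 tested genes. Jchain, a plasma cell transcript, was highest in knockout liver 2 (9.15) but lowest of all in knockout liver 1 (6.11). In 10.8% of the 37 tested stress response genes knockout livers 1 and 2, but not knockout liver 3, lay above every wild-type liver. The share over all tested genes was 9.97%. Knockout livers 1 and 2, which set the high values of Hspa5 and Hsp90b1, were also those with low values of 5 of 9 hepatocyte markers. The part of plasma cells or of hepatocyte RNA in these values was not tested.

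On the side of lower values stood Sdf2l1 and Hyou1. Sdf2l1, a BiP cofactor that is strongly induced by ER stress, was at 8.01, 8.68 and 7.81 in wild-type livers 1 to 3 and 7.51, 8.11 and 7.95 in the knockout livers, with wild-type liver 2 highest and knockout liver 1 lowest. Its difference was -0.31 (SE 0.27, 95% interval -0.93 to 0.32, limma adjusted p = 0.842). Hyou1, an exchange factor for BiP, was at 8.82, 9.46 and 8.98 and 8.34, 9.02 and 9.18 in the same order. The same 2 livers were again the extremes. The difference was -0.24 (SE 0.28, 95% interval -0.87 to 0.39, limma adjusted p = 0.865), and -0.76 on the second probe set, where the groups also overlapped.

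The liver with the lowest value was not the same for all chaperones. In 6 genes wild-type liver 1 was lowest, namely the disulfide isomerases Pdia3, Pdia4 and Pdia6, the BiP cochaperone Dnajb11, and the secreted stress proteins Creld2 and Manf. In 5 genes it was knockout liver 3, namely Hspa5, the lectin chaperone Canx, the cochaperones Dnajb9 and Dnajc3, and the translocon subunit Ssr1. Knockout liver 1 was lowest for P4hb, a disulfide isomerase, and for Sdf2l1 and Hyou1; wild-type liver 2 was lowest for Hsp90b1, and wild-type liver 3 for the lectin chaperone Calr. Knockout liver 2 was lowest for none of the 16. The median deviation of the 16 genes was -0.05, 0.04 and -0.01 in wild-type livers 1 to 3 and 0.16, 0.07 and -0.07 in knockout livers 1 to 3, so the knockout group held both the highest and the lowest liver. Without knockout liver 3 the median difference of the role was 0.16, and without wild-type liver 1 it was -0.10.

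**Figure D2:**
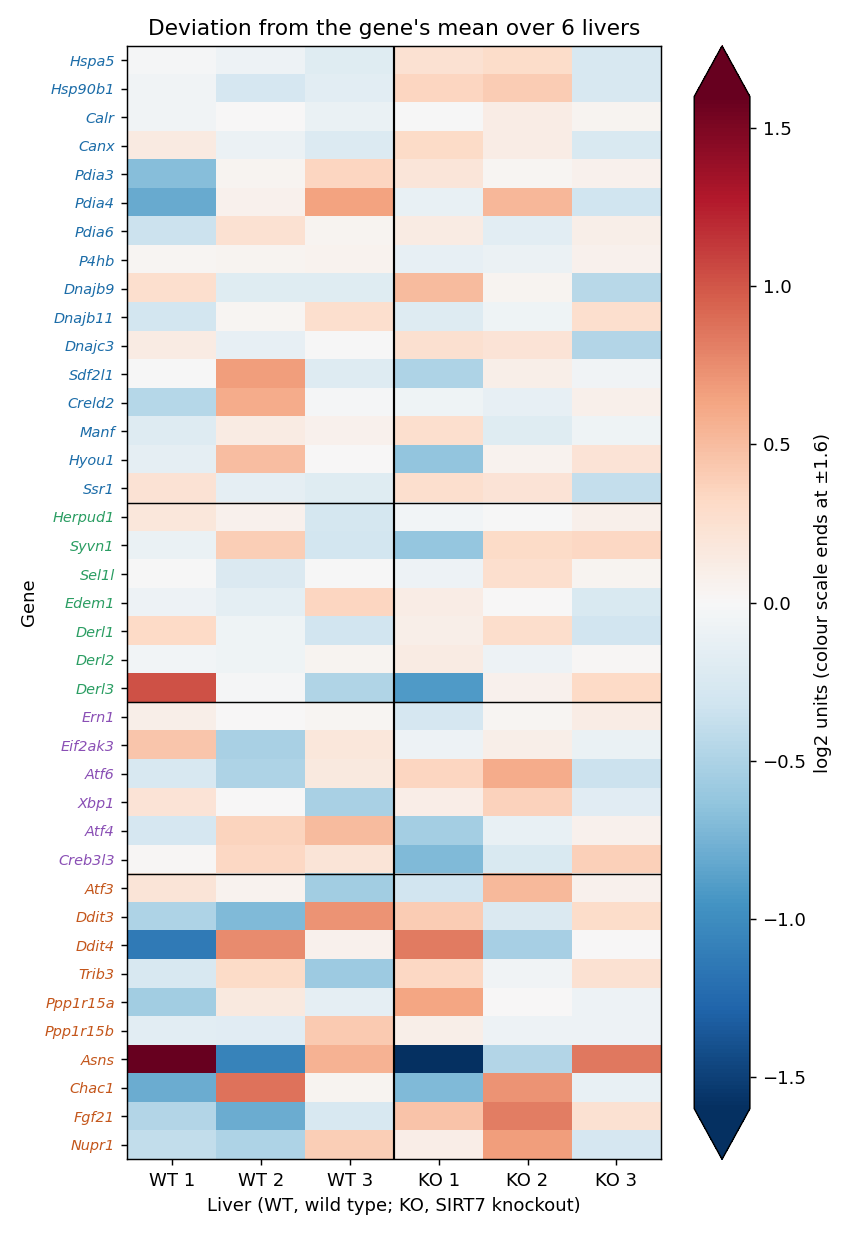
Deviation of each of the 39 genes (rows, labels coloured by role) from its own mean over the 6 livers (columns), in log2 units, with the colour scale ending at ±1.6. Asns runs past both ends of the scale, in wild-type liver 1 and knockout liver 1.

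ERAD genes differed by a median of 0.02 over 7 genes, 5 above 0 and 2 below, with 0 called by limma. Herpud1, which organises the ubiquitin ligase complex and whose promoter carries both elements, was at 12.33, 12.22 and 11.88 in wild-type livers 1 to 3 and 12.12, 12.14 and 12.24 in the knockout livers. Every knockout value lay inside the wild-type range. The difference was 0.02 (SE 0.19, 95% interval -0.42 to 0.46, limma adjusted p = 0.984), and 0.40 on its second probe set. Sel1l, the scaffold of the HRD1 ligase, was at 9.76, 9.54 and 9.76 (wild type) and 9.69, 10.03 and 9.80 (knockout), with knockout livers 2 and 3 above the wild-type range and knockout liver 1 inside it. Its difference was 0.16 (SE 0.19, 95% interval -0.27 to 0.59, limma adjusted p = 0.872). Its other probe sets with a mean of at least 4 gave 0.56 and -0.10. Derl2, a channel component, was at 12.20, 12.19 and 12.29 (wild type) and 12.39, 12.17 and 12.28 (knockout), a difference of 0.05 (SE 0.17, 95% interval -0.35 to 0.45, limma adjusted p = 0.965). Its second probe set gave -0.05.

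Derl3, a paralog of Derl2, was the least steady ERAD gene, at 5.83, 4.79 and 4.33 in wild-type livers 1 to 3 and 3.91, 4.89 and 5.13 in the knockout livers. Wild-type liver 1 was far above and knockout liver 1 below the rest. The difference of -0.34 (SE 0.43, 95% interval -1.32 to 0.64, limma adjusted p = 0.876) is the one interval of this role that reached past 1 log2 unit. Edem1, which draws misfolded glycoproteins into degradation, was at 9.62, 9.55 and 10.05 (wild type) and 9.83, 9.72 and 9.46 (knockout), a difference of -0.07 (SE 0.21, 95% interval -0.56 to 0.41, limma adjusted p = 0.96). Its second probe set gave 0.03. Syvn1, the HRD1 ligase itself, differed by 0.01, and Derl1 by 0.04 with -0.21, -0.22 and 0.26 on its other probe sets. Without wild-type liver 3 the median of the role was -0.10.

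The sensors and transcription factors pointed in both directions, 2 of 5 tested genes above 0 and 3 below, with a median of -0.07 and 0 called by limma. The median was 0.13 without wild-type liver 1 and -0.30 without wild-type liver 2. Atf6, the membrane-bound factor freed by proteolysis, was at 8.43, 8.19 and 8.85 in wild-type livers 1 to 3 and 9.03, 9.28 and 8.34 in the knockout livers. As with Hspa5 and Hsp90b1, knockout livers 1 and 2 lay above every wild-type value and knockout liver 3 did not. That pattern held in 10.8% of the 37 tested stress response genes, close to the 9.97% of all tested genes. Of 9 hepatocyte markers, 5 were low in knockout livers 1 and 2, and their part was not tested. The difference was 0.39 (SE 0.29, 95% interval -0.26 to 1.04, limma adjusted p = 0.806), and 0.66 without knockout liver 3 (limma adjusted p = 0.279). Over all settings the adjusted p ran from 0.0178 to 1, under 0.05 only with array weights, which called 1748 of all 8343 tested genes. Xbp1, whose mRNA is spliced by IRE1, was at 11.38, 11.17 and 10.65 (wild type) and 11.28, 11.54 and 10.99 (knockout). Knockout liver 2 was highest and wild-type liver 3 lowest, with the other livers intermixed. The difference was 0.20 (SE 0.25, 95% interval -0.37 to 0.77, limma adjusted p = 0.876), while the other 3 probe sets gave -0.13, -0.03 and 0.00. Spliced and unspliced Xbp1 were not separated here, and cleavage of ATF6 or phosphorylation of PERK and eIF2 are not measured by mRNA.

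Atf4 had the smallest p of all 37 genes, with values of 10.19, 10.81 and 10.96 in wild-type and 9.91, 10.34 and 10.53 in knockout livers 1 to 3. The groups still overlapped, since wild-type liver 1 was below knockout livers 2 and 3. Its difference was -0.39 (SE 0.26, 95% interval -0.99 to 0.21, limma adjusted p = 0.797), and its second probe set with a mean of at least 4 pointed the other way, at 0.11. Creb3l3, a liver-enriched ER-bound factor also known as CREBH, was at 11.47, 11.79 and 11.67 (wild type) and 10.76, 11.21 and 11.84 (knockout). Knockout livers 1 and 2 were below all wild-type livers and knockout liver 3 was above them. Among hepatocyte markers 5 of 9 also had only knockout livers 1 and 2 below the wild-type range, as did 17.3% of all tested genes. The part of hepatocyte RNA was not tested. The Creb3l3 difference was -0.38 (SE 0.28, 95% interval -1.01 to 0.26, limma adjusted p = 0.807), and -0.66 without knockout liver 3 (limma adjusted p = 0.274; 0.0553 to 1 over all settings). Eif2ak3, the gene of PERK, was at 8.05, 7.08 and 7.79 (wild type) and 7.52, 7.69 and 7.49 (knockout), where the knockout values lay between wild-type liver 2 and the other wild-type livers, and differed by -0.07 (SE 0.26, 95% interval -0.67 to 0.53, limma adjusted p = 0.968). Ern1, the gene of IRE1, was under the level of 4 in every liver, at 3.90, 3.81 and 3.84 in wild-type livers 1 to 3 and 3.54, 3.84 and 3.93 in the knockout livers. In the fit without a filter it differed by -0.08 (SE 0.16, 95% interval -0.45 to 0.28, limma adjusted p = 0.936).

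Targets and partners of ATF4 and CHOP had a median difference of 0.21 (0.085 with array weights) over 9 tested genes, 6 above 0 and 3 below, with 0 called by limma. Ddit3, the gene of CHOP, was at 5.68, 5.47 and 6.89 in wild-type livers 1 to 3 and 6.58, 5.94 and 6.47 in the knockout livers. The highest value of all was that of wild-type liver 3, above all knockout livers, while wild-type livers 1 and 2 were below them all. The difference was 0.32 (SE 0.37, 95% interval -0.53 to 1.16, limma adjusted p = 0.868). Without wild-type liver 3 it was 0.75 (limma adjusted p = 0.323; 0.323 to 1 over all settings), and over all 6 ways of leaving out 1 liver it ran from 0.05 to 0.75. That liver also stood apart in the cell cycle genes, whose part in the Ddit3 values was not tested. Atf3, a stress-induced repressor, was at 4.62, 4.47 and 3.85 (wild type) and 4.11, 4.92 and 4.48 (knockout), intermixed between groups and close to the filter level, with a difference of 0.19 (SE 0.28, 95% interval -0.45 to 0.83, limma adjusted p = 0.891). Ppp1r15a, the inducible eIF2 phosphatase subunit GADD34, was at 4.32, 5.04 and 4.74 (wild type) and 5.51, 4.88 and 4.79 (knockout). Wild-type liver 1 was lowest and knockout liver 1 highest, and the other 4 values lay between 4.74 and 5.04. The difference was 0.36 (SE 0.27, 95% interval -0.25 to 0.98, limma adjusted p = 0.806). Ppp1r15b, the constitutive alternative to that subunit, was at 10.80, 10.79 and 11.38 (wild type) and 11.06, 10.88 and 10.89 (knockout), a difference of -0.05 (SE 0.22, 95% interval -0.54 to 0.45, limma adjusted p = 0.975).

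Trib3, a pseudokinase induced by ATF4 and CHOP, gave different sizes on its 2 probe sets. On the brighter one it was at 6.28, 6.83 and 5.94 in wild-type livers 1 to 3 and 6.86, 6.47 and 6.78 in the knockout livers. Wild-type liver 2 lay among the knockout livers, and the difference was 0.36 (SE 0.26, 95% interval -0.23 to 0.94, limma adjusted p = 0.804). On the second it was at 5.20, 6.15 and 5.44 (wild type) and 6.78, 6.32 and 6.44 (knockout), with every knockout value above every wild-type value. That difference was 0.92 (SE 0.27, 95% interval 0.30 to 1.54, limma adjusted p = 0.785 over 13143 probe sets). This was 1 of 2 non-overlapping probe sets, the other being a second one of Calr, among 67 of these genes with a mean of at least 4, a share of 2.99% against 9.29% of all 13143 such probe sets. The brighter probe set of Trib3 is of a type (suffix x) that can bind related transcripts. The non-overlapping Calr probe set and the brightest ones of Calr and Asns are of the same type. That non-overlapping Calr probe set was at 12.22, 12.21 and 12.11 in wild-type livers 1 to 3 and 12.26, 12.34 and 12.41 in the knockout livers, a difference of 0.16. With the probe sets averaged, Trib3 differed by 0.64 (limma adjusted p = 0.765; 0.577 to 1 over all settings), and with array weights by -0.08.

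Asns, the asparagine synthetase gene and a classical ATF4 target, had the widest range over the livers among the 39 genes. It was at 11.88, 8.99 and 10.62 in wild-type livers 1 to 3 and 8.38, 9.60 and 10.90 in the knockout livers, a range of 3.50 log2 units. Wild-type liver 1 was highest and knockout liver 1 lowest, and the order of the 6 livers alternated between the groups. Its second probe set, at 10.77, 7.84 and 9.78 (wild type) and 8.0, 9.02 and 9.64 (knockout), also had wild-type liver 1 highest, with wild-type liver 2 and knockout liver 1 as the lowest pair. The differences were -0.87 (SE 0.77, 95% interval -2.64 to 0.89, limma adjusted p = 0.84) and -0.58. The residual SD of Asns, its spread within groups, was 1.36 and at the 99.6th percentile of all tested genes. Without wild-type liver 2 the difference was -1.63 (limma adjusted p = 1; 0.373 to 1 over all settings), and over all 6 ways of leaving out 1 liver it ran from -1.63 to -0.18.

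Chac1, which degrades glutathione, was at 5.42, 7.08 and 6.26 and 5.51, 6.93 and 6.10 in wild-type and knockout livers 1 to 3. Here wild-type liver 2 was highest and wild-type liver 1 lowest, the reverse of Asns in that group, and the difference was -0.07 (SE 0.46, 95% interval -1.13 to 0.98, limma adjusted p = 0.981). Ddit4, an inhibitor of mTORC1 that also responds to glucocorticoids and hypoxia, was at 9.22, 11.11 and 10.43 (wild type) and 11.19, 9.83 and 10.37 (knockout), with wild-type liver 1 lowest and knockout liver 1 highest. Its difference was 0.21 (SE 0.49, 95% interval -0.92 to 1.33, limma adjusted p = 0.946). Nupr1, a small chromatin-associated stress protein gene, was at 5.78, 5.67 and 6.56 (wild type) and 6.28, 6.85 and 5.90 (knockout), a difference of 0.34 (SE 0.32, 95% interval -0.38 to 1.06, limma adjusted p = 0.843). With array weights it was 0.96 (limma adjusted p = 0.0216). That setting called 1748 of all 8343 tested genes and weighted knockout liver 2 most (6.12). Over all settings the adjusted p ran from 0.0216 to 1.

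**Figure D3:**
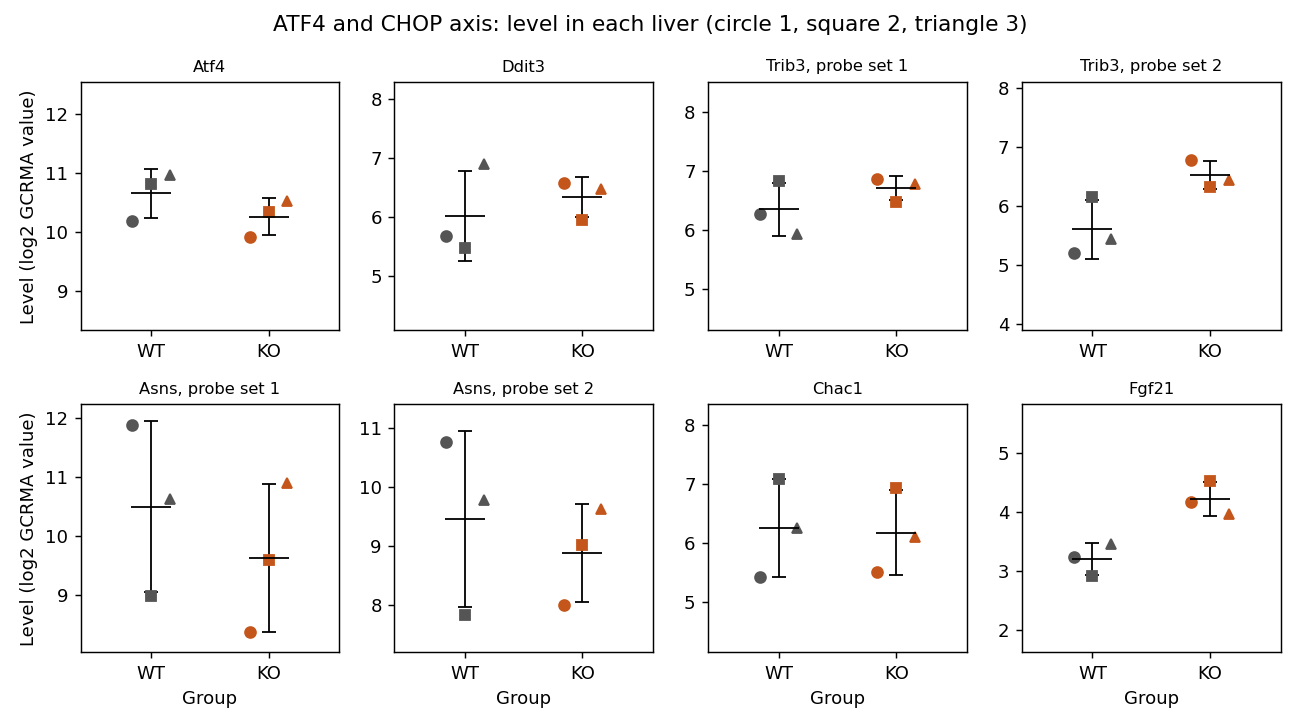
Level of Atf4 and of genes of the ATF4 and CHOP axis in each liver (y axis, log2 GCRMA value, each panel spanning the same number of log2 units) for wild type (WT) and knockout (KO); symbols give the liver number, bars the mean and SD over 3 livers. Only the second Trib3 probe set and Fgf21 show no overlap, and Asns spreads widely in both groups.

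Fgf21, a hepatokine gene under the control of ATF4 and of PPARA, was the one gene whose groups separated on its own probe set. It was at 3.24, 2.92 and 3.46 in wild-type livers 1 to 3 and 4.17, 4.53 and 3.96 in the knockout livers. All 3 knockout values were above all wild-type values, and 4 of the 6 livers were under the level of 4, including every wild-type one. In the fit without a filter the difference was 1.01 (SE 0.21, 95% interval 0.52 to 1.50, limma adjusted p = 0.614), which did not pass the threshold. None of the wild-type values was shown to be above background, so the size of the difference is uncertain. Of the 39 genes 1 had non-overlapping groups, which is a smaller share than over the array: in that fit 10.5% of 12393 genes had non-overlapping groups, 6.2% an unadjusted p under 0.05 and 0.0161% an adjusted one. Without 1 liver the difference lay between 0.85 and 1.14, with adjusted p-values from 0.149 to 1. The values carry no detection call, and near the lower end of the range a log2 difference is not proportional to RNA amount.

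Probe sets of the same gene often pointed in different directions. Of the 39 genes, 19 had several probe sets with a mean of at least 4. In 8 of them all such probe sets pointed the same way, and in 11 they pointed both ways. The gap between the lowest and highest difference of a gene had a median of 0.37 and reached 0.67 for Dnajc3, 0.66 for Sel1l and 0.59 for Canx. Hsp90b1 (0.06), Nupr1 (0.06) and Ppp1r15b (0.01) had the closest probe sets. The plot of probe sets shows that the sign was shared in Hsp90b1, Calr, Hyou1, Herpud1, Trib3, Ppp1r15b, Asns and Nupr1.

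**Figure D4:**
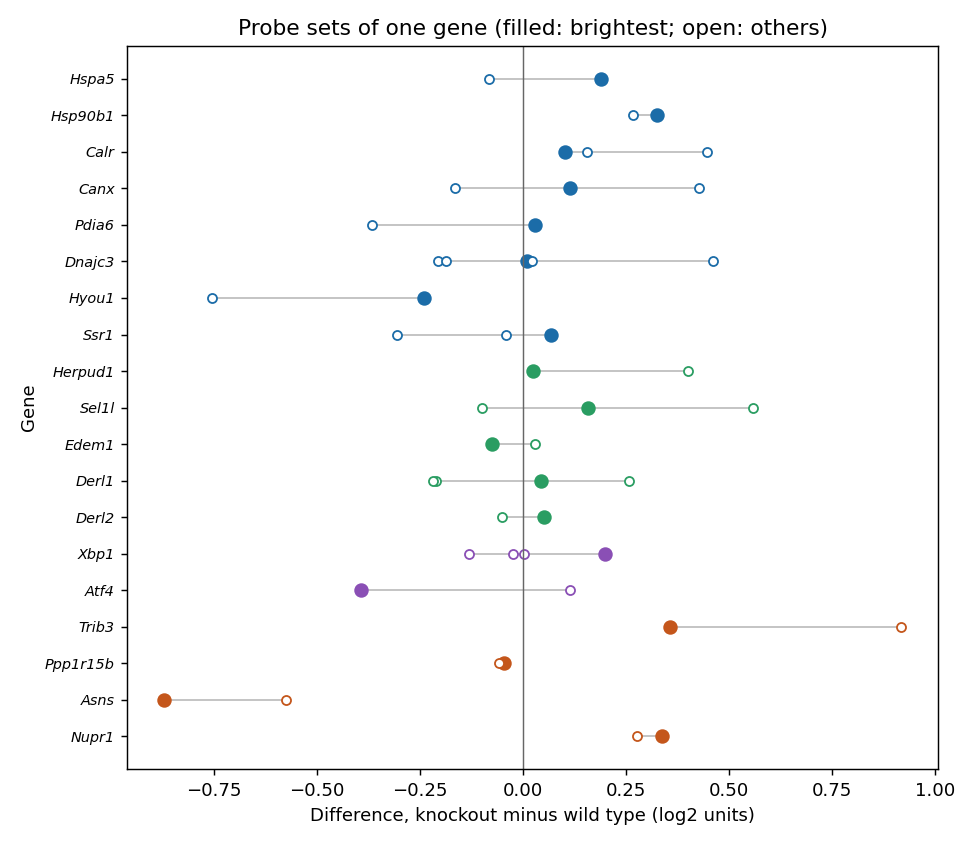
Difference between knockout and wild-type liver in log2 units (x axis) for every probe set with a mean of at least 4, in the 19 genes (y axis) that have several. Filled points are the brightest probe set of a gene and open points the others; 11 of the 19 rows cross 0.

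The spread within groups was also summarised by role, with no test. The median residual SD was 0.28 for chaperones, 0.23 for ERAD genes, 0.36 for sensors and factors and 0.48 for the ATF4 and CHOP axis, against 0.28 over all tested genes. Of the 37 genes 6 (16.2%) lay in the highest 10% of all tested genes by this measure, namely Asns, Ddit4, Chac1, Derl3, Pdia4 and Ddit3. Calr (0.73rd percentile), P4hb (1.44th) and Derl2 (2.17th) lay at the other end. The roles also differed in median log2 level. It was 10.7 for chaperones, 9.76 for ERAD genes, 10.5 for sensors and factors and 6.22 for the ATF4 and CHOP axis, against 8.42 over all tested genes. The part of level in the spread was not tested.

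**Figure D5:**
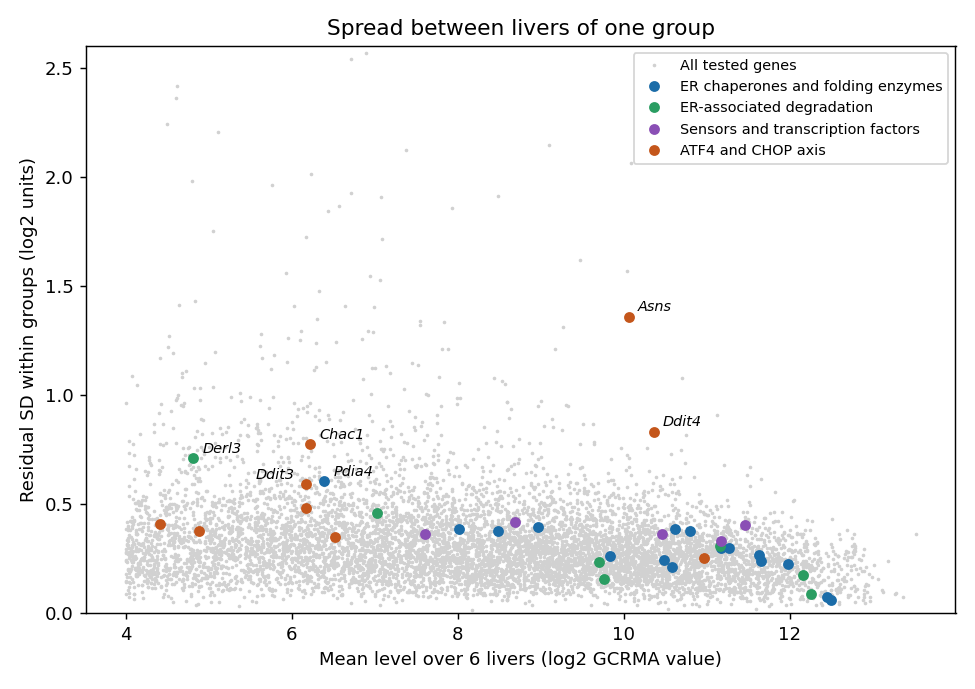
Residual SD within groups (y axis, log2 units) against mean level over the 6 livers (x axis, log2 GCRMA value) for 8343 tested genes (grey; 1 gene lies above the axis) and for the 37 tested stress response genes, coloured by role. Asns (SD 1.36) and Ddit4 (0.83) stand above most genes.

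The genes were also grouped by promoter element. The 11 genes with ERSE or ERSE-II had a median difference of 0.02, 8 above 0 and 3 below, from -0.34 to 0.33. The 6 tested genes with CARE had a median of 0.11, 4 above 0 and 2 below, from -0.87 to 0.36. In the ERSE group the median deviation was -0.05, 0.00 and -0.16 in wild-type livers 1 to 3 and -0.01, 0.12 and 0.08 in knockout livers 1 to 3. In the CARE group it was -0.04, 0.06 and -0.12, and -0.17, 0.25 and 0.08. In other genes of the pathway with a window, ERSE was in 1 of 91 (1.10%) and CARE in 10 of 91 (11%). UPRE was in 5 of those 91 (5.49%, against 0.714% of all genes with a window), and ERSE-II in 0.

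Further genes of the pathway, 120 on lists by function with 101 tested, had 0 called by limma, 48 differences above 0 and 53 below, and a median of -0.03. Below an unadjusted p of 0.05 lay 3 genes, all with lower knockout values (6.46% of all tested genes lay there). In 8 of 101 (7.92%, against 9.74% of all tested genes) the groups did not overlap, 4 with higher and 4 with lower knockout values. Among 34 tested genes of ER folding and translocation, 18 were above 0 and 16 below. The 1 at an unadjusted p under 0.05 was Dad1, an oligosaccharyltransferase subunit, at 10.96, 11.11 and 10.98 in wild-type livers 1 to 3 and 10.37, 10.17 and 10.88 in knockout livers 1 to 3. Its difference was -0.54 (SE 0.22, limma adjusted p = 0.772), with no overlap. Sec11a, a signal peptidase subunit, was at 11.00, 10.84 and 11.04 in wild-type livers 1 to 3 and 11.18, 11.11 and 11.20 in knockout livers 1 to 3, with the knockout livers all higher and a difference of 0.20 (SE 0.17, limma adjusted p = 0.833). Of 18 further ERAD genes 11 were above 0 and 7 below, with 0 at an unadjusted p under 0.05. Rnf5, a ubiquitin ligase of the ER membrane, was at 9.42, 9.47 and 9.55 in wild-type livers 1 to 3 and 9.81, 9.57 and 9.74 in knockout livers 1 to 3, again higher in every knockout liver, and differed by 0.23 (SE 0.18, limma adjusted p = 0.827). Of 18 further sensors and regulators 5 were above 0 and 13 below. Creb3, a relative of Creb3l3 in the ER membrane, was at 11.19, 11.10 and 11.01 in wild-type livers 1 to 3 and 10.08, 10.27 and 11.02 in knockout livers 1 to 3. Knockout livers 1 and 2 were low, as for 5 of 9 hepatocyte markers, and knockout liver 3 lay within the wild-type range. The difference was -0.64 (SE 0.26, limma adjusted p = 0.769). Atf6b, a paralog of Atf6, was at 6.31, 6.59 and 6.34 in wild-type livers 1 to 3 and 6.15, 6.21 and 6.28 in knockout livers 1 to 3. Its knockout values were all lower than the wild-type ones, with a difference of -0.20 (SE 0.18, limma adjusted p = 0.842).

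Of 32 further ATF4 targets 15 were above 0 and 17 below. Slc3a2, the heavy chain of the large neutral amino acid transporter, was at 9.85, 10.04 and 9.70 in wild-type livers 1 to 3 and 8.63, 9.37 and 9.57 in knockout livers 1 to 3. All knockout values were below all wild-type values, and the difference was -0.67 (SE 0.27, limma adjusted p = 0.769). Its light-chain partner Slc7a5 was at 5.17, 5.47 and 5.31 in wild-type livers 1 to 3 and 5.16, 5.10 and 4.95 in knockout livers 1 to 3. The groups again did not overlap, by a margin of 0.01, with a difference of -0.24 (SE 0.18, limma adjusted p = 0.807). Sesn2, a stress-induced inhibitor of mTORC1, went the other way without overlap, at 4.51, 4.46 and 4.71 in wild-type livers 1 to 3 and 4.72, 4.85 and 5.13 in knockout livers 1 to 3, a difference of 0.34 (SE 0.19, limma adjusted p = 0.796). Bcl2l1, which encodes the survival factor BCL-XL, was also higher in every knockout liver, at 7.15, 7.13 and 6.99 in wild-type livers 1 to 3 and 7.43, 7.36 and 7.34 in knockout livers 1 to 3, and differed by 0.29 (SE 0.17, limma adjusted p = 0.796).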

How the data were processed

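Total RNA from 6 mouse liver samples was measured on Affymetrix arrays. The authors deposited log2 values per probe set; the submitters' processing notes name GCRMA 2.20.0 and R 2.11.1. Its options are not stated there, and arrays carry no read depth, so their number limits the precision. Of 22626 probe sets, 20380 had 1 gene symbol, 691 several and 1555 none.

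A gene was read from its brightest probe set over the 6 arrays, tested at a mean log2 value of at least 4, and compared with limma 3.58.1 (R 4.3.3; lmFit and eBayes, 2-sided, 4 residual and 4.6 prior degrees of freedom), with Benjamini-Hochberg adjustment over 8343 genes. Replicate numbers were not taken as pairs: the deviations of same-numbered livers correlated at r = -0.089, -0.0915 and -0.194. Positive values were found for wild-type liver 1 with knockout liver 2 (0.192), 2 with 3 (0.315) and 3 with 1 (0.259). The remaining combinations lay between -0.251 and -0.0504. A pairing in another order was not fitted.

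The members and lists were chosen with earlier results of these data known. Values in every liver were given for 14 central genes, for the 2 smallest p-values per direction in each role and for groups without overlap. Of other lists, genes at an unadjusted p under 0.05 could be named; Sec11a, Rnf5, Atf6b and Bcl2l1 are given so that all non-overlapping pathway genes appear. Chac1, Ddit4, Nupr1, Slc7a5, Sesn2, Jchain, Cela1 and the named hepatocyte markers were added after their values were seen. Alternatives were other filters, probe sets, normalizations, array weights, tests, the replicate block and leaving out each liver. Promoters were RefSeq's, build GRCm38.p6.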

Additional observations from a re-analysis of the deposited data

How the results depend on the processing

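Limma called 2 genes over the whole array; the mean of the probe sets of a gene gave 1, the ordinary 2-sample test 0, array weights 1748, and leaving out 1 liver 1 to 38 (38 without wild-type liver 3, 7 without wild-type liver 2, 5 without knockout liver 1, and 1 without knockout liver 2 or 3). Among the stress response genes 0 were called in every setting except array weights, which called 3: Hsp90b1 (0.58, adjusted p = 0.0264), Atf6 (0.89, adjusted p = 0.0178) and Nupr1 (0.96, adjusted p = 0.0216). These were 3 of 37, against 1748 of all 8343 tested genes called in that fit. That fit gave knockout liver 2 a weight of 6.12 and wild-type liver 2 one of 2.54, against 0.31 to 0.89 for the others, so it rests largely on this pair of arrays; in it Trib3 was at -0.08 and Ddit4 at -0.65, opposite in sign to the equal-weight values. At an unadjusted p under 0.05 there were 1 without a filter (Fgf21), 1 with averaged probe sets (Trib3), 6 with array weights and 0 to 3 with 1 liver left out. Over all genes the share was 6.2% without a filter. It was not counted for averaged probe sets, array weights or fits with 1 liver left out. With array weights it was at least the 1748 of 8343 genes that passed the adjusted threshold, so the 6 genes there are no excess. The median difference of all members was 0.085 with array weights and ran from 0.0125 to 0.107 with 1 liver left out. By role, leaving out 1 liver gave -0.10 to 0.16 for chaperones, -0.10 to 0.081 for ERAD genes, -0.30 to 0.13 for sensors and factors (0.29 with array weights) and 0.09 to 0.27 for the ATF4 and CHOP axis. The cause of these shifts was not tested. With the replicate block 2 genes over the whole array and 0 stress response genes were called, and no call changed. Of 594 values of single genes under an alternative, 581 kept their direction or stayed within the spread, 10 moved and 3 passed the threshold.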
